A study of Mus musculus with 12 samples.

Results

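Skeletal muscle RNA was followed through 10 genes in libraries of mouse trigeminal ganglia: the fast myosin heavy chain genes Myh1, Myh2 and Myh4, the regulatory light chain gene Mylpf, the actin gene Acta1, the troponin genes Tnnt3 and Tnnc2, the calcium pump gene Atp2a1, the creatine kinase gene Ckm and the myoglobin gene Mb. They were taken by symbol from the 51341 genes of the deposited table, and each matched 1 Ensembl identifier. The ganglia came from 12 CD1 mice, an outbred stock, 6 responders and 6 nonresponders to pituitary adenylate cyclase-activating polypeptide (PACAP), each group made of 3 males and 3 females. PACAP is a neuropeptide, and the title of the series concerns light aversion after it and its inheritance. No genotype, allele, age or other agent is given for either group, and how a response was scored, and whether the mice had PACAP before the dissection, remains not given in the sources used here. Each library was a bulk poly A library of a dissected ganglion sample, so fewer cells of a type and less RNA per cell cannot be told apart.

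A skeletal muscle fibre contracts when myosin heads pull on actin filaments. Troponin on the actin filament senses calcium, which is released from the sarcoplasmic reticulum and pumped back by the product of Atp2a1, and creatine kinase and myoglobin serve the supply of ATP and oxygen. Fibres differ in their myosin heavy chain: slow fibres use Myh7, and fast fibres use Myh2 (type IIa), Myh1 (type IIx) or Myh4 (type IIb), the last in the fastest fibres. The trigeminal ganglion holds the cell bodies of sensory neurons of the face with their glia, and muscle fibres are not a part of it.

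The 3 fast myosin genes lie side by side on the plus strand of chromosome 11 (GRCm38): Myh2 at chr11:67171027-67197517, Myh1 at chr11:67200052-67224575 and Myh4 at chr11:67238029-67260446. Because the split of RNA among them carries the fibre type reading, the 250 bases before the RefSeq start of each are shown, 5′ to 3′ on the plus strand of GRCm38.p6, at chr11:67199852-67200101 for Myh1, chr11:67170777-67171026 for Myh2 and chr11:67237562-67237811 for Myh4. Capitals mark the longest run of bases that the 3 windows share.
Myh1: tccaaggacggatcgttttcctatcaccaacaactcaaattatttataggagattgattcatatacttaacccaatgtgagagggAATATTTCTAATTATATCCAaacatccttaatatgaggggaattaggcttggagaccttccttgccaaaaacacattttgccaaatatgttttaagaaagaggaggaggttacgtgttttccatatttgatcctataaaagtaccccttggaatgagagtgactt
Myh2: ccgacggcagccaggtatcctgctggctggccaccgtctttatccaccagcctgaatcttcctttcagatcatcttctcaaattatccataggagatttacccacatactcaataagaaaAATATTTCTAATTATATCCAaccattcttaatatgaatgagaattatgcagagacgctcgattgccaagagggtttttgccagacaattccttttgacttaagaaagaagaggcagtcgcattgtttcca
Myh4: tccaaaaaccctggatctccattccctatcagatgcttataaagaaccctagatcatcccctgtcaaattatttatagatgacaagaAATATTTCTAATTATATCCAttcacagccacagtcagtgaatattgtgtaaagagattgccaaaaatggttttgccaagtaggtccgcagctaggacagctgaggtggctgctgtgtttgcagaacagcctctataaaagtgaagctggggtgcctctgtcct
The shared run of 20 bases, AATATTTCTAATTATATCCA, began 165 bases before the start of Myh1, 130 before that of Myh2 and 163 before that of Myh4. It was found in 3 of the 32851 promoter windows of the RefSeq table, and these were the 3 myosin windows shown. The whole windows, which include this run, were also aligned in pairs. Identical were 147 of 198 aligned bases (74.2%) between Myh1 and Myh2 and 147 of 230 (63.9%) between Myh1 and Myh4. Between Myh2 and Myh4 it was 131 of 209 (62.7%).

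Of the 10 genes, 9 had RefSeq promoter windows, 11 in all because Mb has several starts, and Tnnt3 had none in the table. The TATA box letters TATAAA, searched on the strand of the gene, stood 32 to 27 bases before the start of Myh1 and 31 to 26 before that of Myh4, and in the window of Acta1 too, against 7.59% of all windows. A MEF2 site, the binding motif of a family of muscle transcription factors, was searched on both strands and found in the windows of Myh1 and Myh4 with the same letters, TTATTTATAG, and 2.92% of all windows held one. A CArG box, the motif of serum response factor, was found in the windows of Acta1 and Myh4, against 1.47% of all windows, and an MCAT box (CATTCC, either strand) in those of Acta1, Myh1 and Myh4, against 12.6%. The E-box CANNTG, the motif of MyoD and related factors, was found in the windows of 7 of the genes, against 66.2% of all windows, so that its presence is common. No E-box, MEF2, CArG, MCAT or TATA letters were found in the window of Myh2, which says only that these letters are not in these 250 bases.

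All values below are FPKM (fragments per kilobase, corrected for sequencing depth, a level per length that allows genes to be compared), given for responders 1 to 6 and then for nonresponders 1 to 6. Responders 1, 2 and 6 and nonresponders 2, 4 and 5 were male, and the others were female. Total FPKM per library lay between 286388 and 358590, and 12648 to 13994 genes reached 1 FPKM. The depth implied by the step between low values was lowest in responder 1, at about 17600000 fragments, and highest in nonresponder 4, at about 39200000. Sensory neuron genes were present in every library, with summed levels of 10 genes from 1348 to 2728 FPKM (Tubb3, a neuronal tubulin, from 428 to 1007). In responder 1 the pituitary hormone gene Gh alone stood at 63429 FPKM, and the summed level of 7 pituitary hormone genes was 359 to 77880 in responders and 27.2 to 1053 in nonresponders, so libraries differed in other tissue RNA as well.

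Muscle RNA was found in all 12 libraries, at levels that differed far more between mice than between the groups. The summed FPKM of the 10 genes was 125, 371, 71.1, 38.9, 9.28 and 55.9 in responders and 409, 37.7, 1444, 1696, 27.7 and 57.0 in nonresponders. Nonresponders 3 and 4, a female and a male, stood apart, nonresponder 1 and responder 2 came next, and responder 5 was the lowest, 183-fold below nonresponder 4. In nonresponder 4 the 10 genes made 0.51% of the total FPKM, in nonresponder 3 0.466%, and in the other libraries between 0.00315% and 0.135%. The group medians were 63.5 FPKM in responders and 233 in nonresponders, and the ranges overlapped, since nonresponders 2, 5 and 6 lay within the range of the responders.

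**Figure D1:**
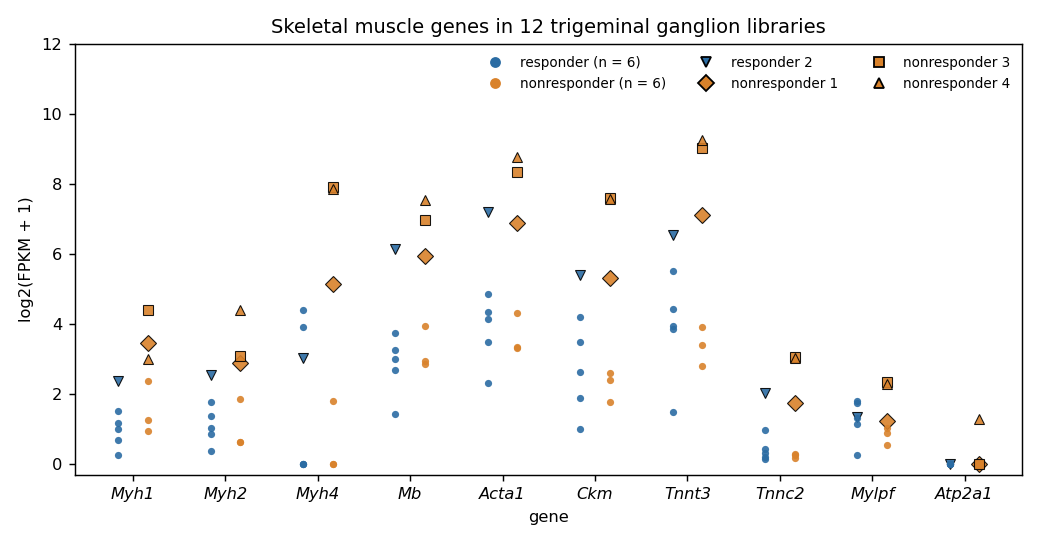
Level of each skeletal muscle gene, as log2(FPKM + 1), in the 6 responders (blue) and the 6 nonresponders (orange), with 1 point per mouse and the 4 mice with the most muscle RNA given their own symbols. Nonresponders 3 and 4 are the 2 highest points for 8 of the 10 genes, and the groups overlap for every gene.

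Myh4, the type IIb myosin gene, was the highest of the 3 heavy chains in 6 of the 7 mice where it was above 0. Its FPKM was 20.01, 7.21, 14.1, 0, 0 and 0 in responders and 34.6, 2.48, 242, 231, 0 and 0 in nonresponders. The gene was thus listed at 0 in 3 responders and 2 nonresponders and above 200 in nonresponders 3 and 4. A listed 0 can be a failed estimate, and these 5 mice all had other muscle genes above 0, such as Tnnt3 at 14.5, 1.80, 13.4, 6.02 and 14.3.

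Myh1, the type IIx gene, had FPKM of 1.87, 4.15, 1.03, 1.27, 0.20 and 0.63 in responders and 10.1, 4.23, 20.3, 6.96, 1.41 and 0.95 in nonresponders. The means were 1.53 ± 1.41 (SD, n = 6) and 7.32 ± 7.23 (SD, n = 6), and 4 nonresponders lay above every responder, while the other 2 lay inside the responders' range. Myh2, the type IIa gene, had FPKM of 1.04, 4.85, 0.82, 1.59, 0.30 and 2.45 in responders and 6.37, 0.55, 7.58, 20.1, 0.56 and 2.63 in nonresponders. Its highest value was in nonresponder 4, and 3 nonresponders lay within the responders' range. The mean of Myh2 was 1.84 ± 1.65 (SD, n = 6) in responders and 6.30 ± 7.37 (SD, n = 6) in nonresponders.

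Acta1 (chr8:123891769-123894751, minus strand), the skeletal muscle α-actin, was among the most abundant of the genes. Its FPKM was 28.0, 146, 16.6, 10.3, 3.95 and 19.3 in responders and 117, 9.07, 321, 436, 9.18 and 19.1 in nonresponders. Responder 2 exceeded nonresponder 1 here, and only nonresponders 3 and 4 lay above all responders. The means of Acta1 were 37.3 ± 53.7 (SD, n = 6) and 152 ± 184 (SD, n = 6), so that in each group the SD was larger than the mean.

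Tnnt3, fast troponin T, which anchors the troponin complex to tropomyosin, reached the highest level of the 10 genes. Its FPKM was 45.2, 93.1, 20.4, 14.5, 1.80 and 13.4 in responders and 137, 9.68, 522, 612, 6.02 and 14.3 in nonresponders. Nonresponders 1, 3 and 4 lay above every responder, and the other 3 nonresponders lay among the lower responders. The means of Tnnt3 were 31.4 ± 33.5 (SD, n = 6) and 217 ± 277 (SD, n = 6), with a 339-fold span between responder 5 and nonresponder 4.

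Tnnc2, fast troponin C, which binds the calcium, was far lower than Tnnt3 although both belong to 1 complex. Its FPKM was 0.35, 3.11, 0.97, 0.26, 0.12 and 0.16 in responders and 2.38, 0.22, 7.40, 7.20, 0.21 and 0.13 in nonresponders. The order of the mice was close to that of Tnnt3, with nonresponders 3 and 4 on top and responder 2 next. Within a mouse, Tnnc2 stood at 0.00765 to 0.0676 times the FPKM of Tnnt3, while Tnni2, fast troponin I and no member, stood at 0.539 to 1.03 times.

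Tnnc2 (chr2:164777161-164779967, minus strand) overlaps Ube2c, a gene of the cell cycle on the opposite strand, over 1662 bases, and whether the authors' counting used strand remains not given in the sources used here. Ube2c had FPKM of 1.95, 5.46, 1.30, 0.49, 0.06 and 0.65 in responders and 6.14, 0.43, 21.6, 32.2, 0.36 and 0.67 in nonresponders. It was higher than Tnnc2 in 11 of the 12 mice and followed the muscle genes closely: of the non-member genes it had the second highest likeness to the members. The overlap covers only a part of each gene, and reads that lie wholly within it may be counted for either gene without strand. The share of either gene in these values was not tested.

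Atp2a1, the fast calcium pump SERCA1, is a main gene of fast muscle fibres, yet it was listed at 0 in 11 mice and at 1.44 FPKM in nonresponder 4. It failed the filter on low values and was not tested. Atp2a1 (chr7:126445858-126463108, minus strand) overlaps Rabep2, a gene of vesicle traffic on the opposite strand, over 3388 bases, and transcripts of the pair share 338 identical bases. Rabep2 had FPKM of 15.4, 17.7, 14.4, 13.3, 11.4 and 12.2 in responders and 23.4, 13.3, 56.7, 38.9, 13.1 and 11.7 in nonresponders. The 2 highest values of Rabep2 were those of nonresponders 3 and 4, and nonresponder 1 and responder 2 came next, as in the muscle genes. How far reads of Atp2a1 were assigned to Rabep2 was not tested. Other members overlap genes with lower values on the opposite strand, such as Tnnt3 (chr7:142498836-142516009) with Prr33, at most 3.54 FPKM, and Myh1 with Myhas, at most 1.76.

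**Figure D2:**
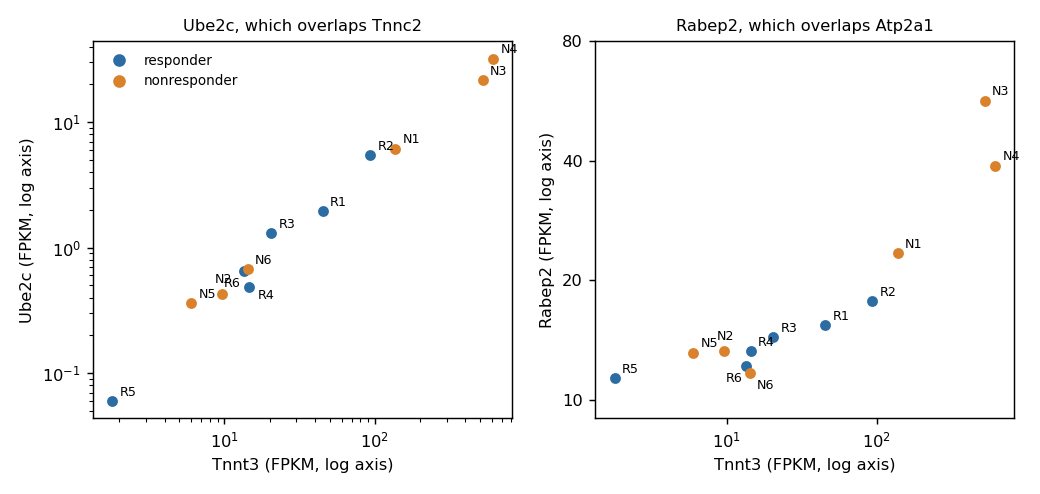
FPKM of Ube2c (left) and Rabep2 (right) against the FPKM of Tnnt3, on log axes, with 1 point per mouse labelled R (responder, blue) or N (nonresponder, orange). Ube2c runs from 0.06 to 32.2 along with Tnnt3, and Rabep2 stays between 11.4 and 17.7 except in nonresponders 1, 3 and 4, where it is 23.4, 56.7 and 38.9.

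Mylpf (chr7:127208890-127214298, plus strand), the regulatory light chain of fast myosin, differed least between the mice. Its FPKM was 2.52, 1.56, 1.48, 1.21, 0.19 and 2.38 in responders and 1.36, 0.85, 4.12, 3.89, 1.06 and 0.46 in nonresponders. Nonresponders 3 and 4 were again the highest, but by less than for any other tested member, with a highest value 2.90 times the median of all mice, against 9.97 to 50.0 times for the other 8 tested genes. The means of Mylpf were 1.56 ± 0.85 (SD, n = 6) and 1.96 ± 1.61 (SD, n = 6). Myl1, the other main fast light chain gene and no member, had 0.65 to 31.7 FPKM in responders and 1.72 to 137 in nonresponders.

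Ckm (chr7:19404776-19422841, plus strand), the muscle creatine kinase, which buffers ATP, had FPKM of 17.3, 41.7, 10.3, 2.68, 1.02 and 5.20 in responders and 38.7, 4.28, 195, 191, 2.46 and 5.07 in nonresponders. Only nonresponders 3 and 4 lay above all responders. Its means were 13.0 ± 15.2 (SD, n = 6) and 72.8 ± 94.2 (SD, n = 6). Mb (chr15:77015487-77050670, minus strand), the oxygen store of oxidative fibres, had FPKM of 8.61, 70.1, 5.40, 7.04, 1.69 and 12.4 in responders and 60.9, 6.29, 125, 187, 6.79 and 14.4 in nonresponders. Responder 2 stood far above the other responders, of which the highest was 12.4. The means of Mb were 17.5 ± 26.0 (SD, n = 6) and 66.6 ± 74.5 (SD, n = 6).

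The members were compared between the groups by limma on log2(FPKM + 1) with sex as a covariate, fitted over 14203 genes with Benjamini-Hochberg adjustment over all of them; 9 of the 10 members entered. None of the 9 passed an adjusted p of 0.05, a threshold that 0.0211% of all genes tested passed. All 9 had lower fitted values in responders, against 49.3% of all genes, and their median log2 fold change (responder minus nonresponder) was -1.44, against 0.00 for all genes. Myh1 had the smallest p, with a log2 fold change of -1.41 (SE 0.58, adjusted p = 0.64 by limma), and it was the only member with an unadjusted p under 0.05, a mark that 4.17% of all genes passed with lower values in responders. Since the members rise and fall together from mouse to mouse, their shared direction is not 9 separate observations.

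The largest log2 fold change was that of Myh4, at -1.90 with an SE of 1.64. The zeros listed for Myh4 in 3 responders and 2 nonresponders, which may be failed estimates, enter this value. Mb was at -1.66 (SE 0.99), Tnnt3 at -1.63 (SE 1.30), Acta1 at -1.44 (SE 1.14) and Ckm at -1.44 (SE 1.19). Myh2 was at -0.92 (SE 0.65), Tnnc2 at -0.74 (SE 0.60) and Mylpf at -0.12 (SE 0.35). The adjusted p of these 8 genes by limma lay between 0.733 and 0.948, and each SE reflects the wide spread inside both groups.

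Much of the difference rested on a pair of mice. Without nonresponders 3 and 4, Tnnt3 was at -0.02 (SE 1.08), Acta1 at -0.08 (SE 0.98), Ckm at 0.08 (SE 0.94) and Myh4 at 0.15 (SE 1.34) on the log2 scale. Myh1 stayed at -0.85 (SE 0.54, adjusted p = 0.984 by limma) and Mb at -0.55 (SE 0.90), while Mylpf was at 0.34 (SE 0.25). Of the 8 members that still passed the filter on low values, 5 were below 0, with a median of -0.05. Without nonresponder 3 alone the median of the members was -0.84, and without nonresponder 4 alone -0.83. Without responder 2, the responder with the most muscle RNA, it was -1.92.

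**Figure D3:**
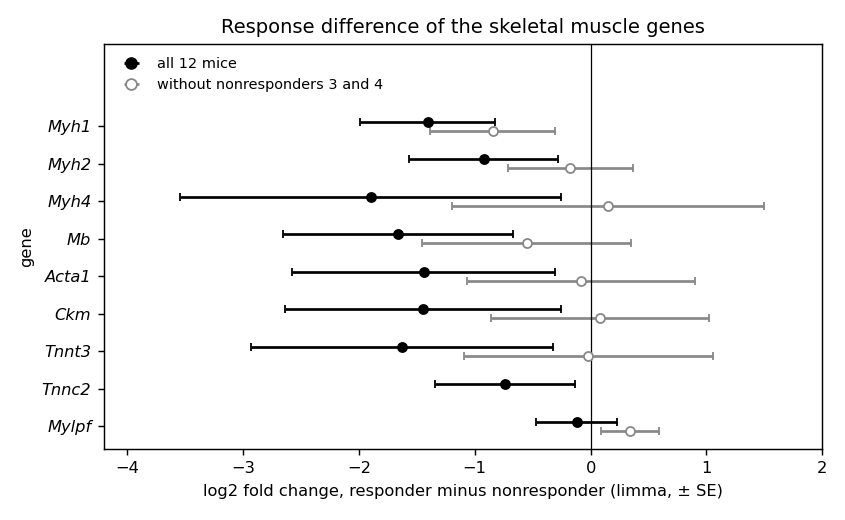
Log2 fold change (responder minus nonresponder, limma) of each tested member with its standard error, with all 12 mice (black) and without nonresponders 3 and 4 (open grey). With all mice the estimates lie between -1.90 and -0.12, without the 2 nonresponders between -0.85 and 0.34, where Tnnc2 no longer passed the filter on low values. The 2 mice were left out after their high values were seen, which raises the estimates by construction.

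The groups could not be compared within the numbers that the sample descriptions carry, whose meaning remains not given in the sources used here, because each number held mice of 1 group only. Among nonresponders the number 82 was shared by 3 mice with Tnnt3 at 9.68, 612 and 6.02 FPKM, and the number 83 by 2 mice with Tnnt3 at 137 and 14.3. Mice with 1 number thus spanned up to 102-fold. Among responders, 48 was shared by mice with Tnnt3 at 45.2 and 93.1, and 49 by mice with Tnnt3 at 20.4 and 14.5. Such a number and the response group cannot be told apart in these data.

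A difference by sex alone was not resolved for the members. Females minus males, the log2 differences of the 9 members lay between -0.43 (Mb) and 0.03 (Tnnc2), with SEs from 0.35 (Mylpf) to 1.64 (Myh4). The adjusted p lay between 0.864 and 0.998 by limma, and none passed the threshold that 0.0563% of all genes passed. Within females, the response difference was -3.40 for Tnnt3 (SE 1.76), -3.25 for Mb (SE 1.29), -3.20 for Acta1 (SE 1.50) and -2.13 for Myh1 (SE 0.80). Within males, it was 0.15 for Tnnt3 (SE 1.76), -0.07 for Mb (SE 1.29), 0.31 for Acta1 (SE 1.50) and -0.68 for Myh1 (SE 0.80). The values behind this are that the 3 female responders had a summed member level of 71.1, 38.9 and 9.28 FPKM and the female nonresponders 409, 1444 and 57.0, whereas the males had 125, 371 and 55.9 against 37.7, 1696 and 27.7.

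No member passed within either sex, where the shares of all genes that passed were 0.00704% in females and 0.0141% in males. The difference between the sexes was tested by the interaction of response and sex, which lay between -3.55 (Tnnt3) and -0.71 (Mylpf) for the 9 members with adjusted p of 0.836 to 0.896 by limma. No gene passed that test over all genes (0.0%, 0 of 14203), and 711 had an unadjusted p under 0.05. With 3 mice of each sex in a group, a difference of the response between the sexes was not resolved for the members.

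To describe fibre type, the FPKM of Myh1, Myh2 and Myh4 were given as shares of their sum in each mouse; these are shares of RNA and not of fibres. Myh4 held 89.7% in nonresponder 3, 89.5% in nonresponder 4, 88.4% in responder 3, 87.3% in responder 1 and 67.8% in nonresponder 1. It held 44.5% in responder 2, 34.2% in nonresponder 2 and 0% in the 5 mice where it was listed at 0. Mice with Myh4 at 0 were found in both groups. Their summed FPKM of Myh1 and Myh2 alone was 0.49 to 3.58, and that of the other 7 mice was 1.85 to 27.9, so that these ranges overlapped, with responders 1 and 3 at 2.91 and 1.85 and their Myh4 above 0.

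The listed zeros of Myh4 enter the shares of all 3 genes. Myh2 held the largest share in responders 4, 5 and 6 (55.5%, 60.2% and 79.4%) and in nonresponder 6 (73.4%), all mice with Myh4 listed at 0. Myh1 led in nonresponder 2, with 58.2%, and in nonresponder 5, with 71.6% and Myh4 listed at 0. In responder 2 the 3 genes were closest to even, with 44.5% Myh4, 29.9% Myh2 and 25.6% Myh1. With Myh4 left out, Myh1 made 20.6% to 64.3% of the sum of Myh1 and Myh2 in responders and 25.7% to 88.5% in nonresponders, and these ranges overlapped.

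Because of these zeros the group values of the shares are given as ranges. Myh1 held 6.47% to 44.5% in responders and 2.70% to 71.6% in nonresponders, Myh2 4.53% to 79.4% and 2.81% to 73.4%, and Myh4 0% to 88.4% and 0% to 89.7%. The 2-sided exact permutation test over the 924 splits of the 12 mice gave p = 0.608 for Myh1, p = 0.327 for Myh2 and p = 0.675 for Myh4, each 0.675 after adjustment over the 3 genes, where 0.00216 is the smallest p the design allows. These tests rest on the listed zeros too. The differences of the mean shares (responder minus nonresponder) were -6.87 percentage points for Myh1, 17.0 for Myh2 and -10.2 for Myh4, and single mice moved each of them by more than 1.5 times. With 1 mouse left out, Myh1 lay between -12.5 (without nonresponder 4) and 1.24 (without nonresponder 5), Myh2 between 8.98 (without responder 6) and 27.3 (without nonresponder 6), and Myh4 between -20.5 (without responder 3) and -1.61 (without nonresponder 3). Without nonresponders 3 and 4 the differences were -19.8, 8.65 and 11.2, and the exact permutation p was 0.171, 0.70 and 0.69. The transcripts of Myh1 and Myh2 are 90.8% identical over 5901 bases and those of Myh1 and Myh4 90.2% over 5857. Whether reads of 1 of these genes were assigned to another was not tested, so the split among the 3 is to be read with caution.

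**Figure D4:**
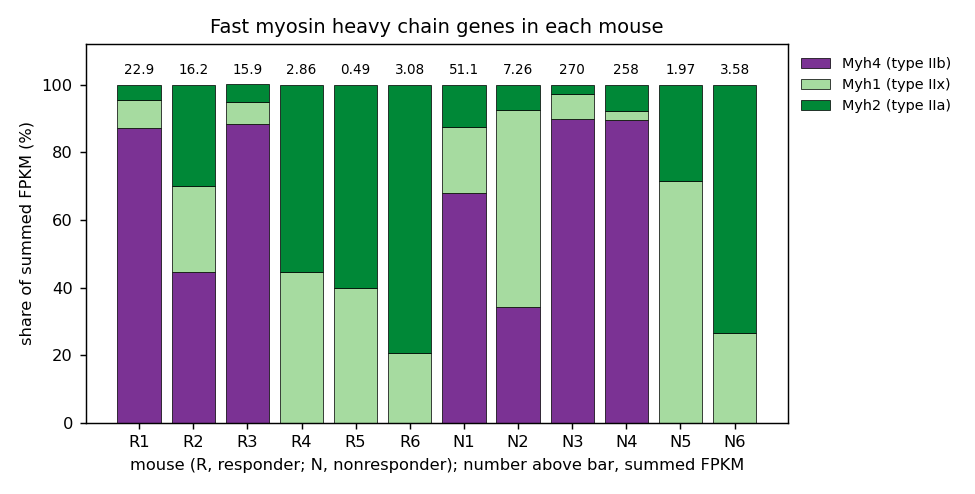
Shares of Myh4, Myh1 and Myh2 in their summed FPKM in each mouse, as stacked bars from 0% to 100%, with the summed FPKM above each bar. Myh4 makes 67.8% to 89.7% in 5 mice and 0% in the 5 mice where it was listed at 0, responders 4, 5 and 6 and nonresponders 5 and 6.

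Slow and specialised myosins were read beside the fast ones. Myh7b, a relative of Myh7 in the slow list, had 0.82 to 2.53 FPKM in responders and 1.19 to 2.51 in nonresponders. In responder 5 its 2.53 exceeded the summed 0.49 of the 3 fast chains, while Myh7 itself was listed at 0 there. Myh7b did not follow the muscle genes over the mice (Pearson's r = -0.07 with the members), and its source was not tested. Myh7, the slow and cardiac heavy chain, lay between 0 and 1.18 FPKM, highest in nonresponder 4, and Myh8, the perinatal chain, between 0.06 and 0.60. Myh3, the embryonic chain, reached 2.85, 3.59 and 6.58 FPKM in nonresponders 1, 3 and 4, against at most 1.04 in the other mice. Myh15 showed the same 3 mice on top, at 1.87, 1.93 and 4.00 against at most 0.48, and Myh13, a chain of extraocular and laryngeal muscle, had 0.22 to 0.92 in responders and 0.35 to 1.76 in nonresponders. Of the 7 specialised and developmental myosin genes, 4 were tested, and all 4 had lower fitted values in responders (median log2 fold change -0.60, 0 called by limma).

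The members followed each other over the mice. Pearson's r between the log2 level of a member and the mean standardised level of the other members, over 12 mice, was 0.99 for Ckm and Tnnt3, 0.98 for Acta1, 0.95 for Mb and Tnnc2, 0.89 for Myh2 and Myh4, 0.84 for Myh1 and 0.77 for Mylpf. Without nonresponders 3 and 4 it was 0.97 to 0.98 for Ckm, Tnnt3 and Acta1, 0.75 for Myh1 and 0.47 for Mylpf (10 mice). Spearman's rho over the same 10 mice was 0.84 to 0.98 for Ckm, Tnnt3 and Acta1, and 0.49 (Myh1) to 0.78 (Tnnc2) for the others. These are descriptions, and all values of 1 mouse share a library with its depth and its makeup of tissues. Within a mouse, Ckm stood at 0.185 to 0.566 times the FPKM of Tnnt3, a span far narrower than that of either gene. Mb stood at 0.191 to 1.13 times, Myh1 at 0.0114 to 0.437 times and Mylpf at 0.00635 to 0.177 times. The highest ratios of Mb to Tnnt3, 1.13 and 1.01, were those of nonresponders 5 and 6, and the lowest, 0.191 and 0.239, those of responder 1 and nonresponder 3.

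The 15 protein-coding genes most like the members, out of 12556 compared by Pearson's r with the members' mean standardised level, were led by Tnni2 (r = 0.991, Spearman's rho 0.937), Ube2c (r = 0.988, rho 0.965) and Tcap (r = 0.988, rho 0.951), which encodes the titin cap of the Z disc. After them came Des, Ankrd23, Myoz1, Mybpc1, Rpl3l, Ckmt2, Tpm2, Pdlim3, Trdn, Cacna1s, Rtn2 and Mybpc2, with r from 0.976 to 0.986. Des encodes desmin, the intermediate filament of muscle, Ckmt2 the mitochondrial creatine kinase, Tpm2 a tropomyosin, and Cacna1s the voltage sensor of the transverse tubule. Of the 15 genes, 9 stood in the muscle lists. In all 77 genes had an r of at least 0.9, while the median gene was at 0.01. Over the 10 mice without nonresponders 3 and 4 the 15 genes had r of 0.93 to 0.98. They were picked over mice that include these 10, so this is no separate check.

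Other muscle genes were read from lists by role. Of the 12 other fast fibre genes, 9 were tested, all 9 had lower fitted values in responders and none passed, with a median log2 fold change of -1.31. Among them Tnni2 had 1.13 to 76.6 FPKM in responders and 6.19 to 349 in nonresponders (log2 fold change -1.58, adjusted p = 0.777 by limma), and the glycolytic enolase Eno3 had 0.85 to 30.1 and 4.83 to 124. Pvalb, parvalbumin, a calcium buffer of fast fibres that sensory neurons make too, had 1.96 to 108 and 17.2 to 389. Casq1, the calcium store of the fast sarcoplasmic reticulum, was at most 0.17 FPKM in any mouse.

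Of 25 sarcomere and Z disc genes, 18 were tested, and all 18 had lower fitted values in responders (median -0.76, 0 called). Tcap had 0.86 to 27.4 FPKM in responders and 2.89 to 176 in nonresponders, with nonresponders 3 and 4 at 154 and 176. Cryab, a small heat shock protein that is not limited to muscle, had 67.3 to 146 and 104 to 152 and had r = -0.04 with the members. All 12 tested of 15 excitation-contraction coupling genes were lower too (median -0.64, 0 called). Of these, Trdn, triadin, had 27.6 and 27.9 FPKM in nonresponders 3 and 4 and at most 6.43 in the other mice. The list did not behave alike throughout. Tmem38a, its most abundant gene, had 36.2 to 48.3 FPKM in responders and 40.8 to 66.1 in nonresponders (r = 0.92 with the members). Cacnb1 had 1.45 to 5.57 and 2.88 to 6.06 (r = 0.05).

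All 13 tested of 15 muscle energy metabolism genes had lower fitted values in responders (median -0.97, 0 called). Cox6a2, a muscle subunit of cytochrome oxidase, had 0.77 to 9.11 FPKM in responders and 1.32 to 76.5 in nonresponders. Fabp3, a fatty acid carrier that neural tissue makes too, had 42.0 to 71.7 and 57.1 to 71.1. Of 6 tested slow fibre genes among 11, 5 were lower and 1 higher (median -0.58, 0 called), and Tnni1, slow troponin I, had 0.07 to 0.86 FPKM in responders and 0.81 to 5.81 in nonresponders (log2 fold change -1.31, adjusted p = 0.308 by limma). Atp2a2, the pump of slow muscle and of most other cells, had 70.3 to 95.1 and 62.7 to 82.7.

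Neuromuscular junction genes summed to between 13.7 and 17.1 FPKM in every mouse, those with the most muscle RNA included. Most of this sum came from Rapsn, Dok7, Colq, Chrnb1 and Musk. The acetylcholine receptor genes Chrna1, Chrnd and Chrne reached at most 0.78, 0.04 and 0.28 FPKM. Of the 9 junction genes, 5 were tested, 4 lower and 1 higher, with a median of -0.07 and 0 called. Rapsn, which clusters acetylcholine receptors, had 3.97 to 6.72 FPKM in responders and 4.58 to 6.58 in nonresponders. Of 14 myogenic regulators and satellite cell genes, 6 were tested, 4 lower and 2 higher, with a median of -0.25 and 0 called. Pax7, the marker of satellite cells, was listed at 0 in 11 mice and at 0.36 in responder 1. Myod1 and Myog, the factors of new fibre formation, reached at most 0.56 and 0.71. Myf6, the myogenic factor of mature fibres, had 1.36, 5.20 and 4.55 FPKM in nonresponders 1, 3 and 4 and at most 0.56 in the other mice.

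Of the 5 atrophy genes, only Fbxo32 was tested, at 3.97 to 9.28 FPKM in responders and 3.77 to 6.47 in nonresponders (log2 fold change 0.03, 0 called). Trim63, the other main ubiquitin ligase of atrophy, reached 2.27 and 3.03 in nonresponders 3 and 4 and at most 0.62 in the other mice.

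Cardiac and smooth muscle genes were read beside the skeletal ones. Of 10 cardiac genes, 5 were tested, 3 lower and 2 higher (median -0.07, 0 called). Myh6, the atrial heavy chain, was at most 0.30 FPKM, Nppa at most 0.55 and Tnnt2, cardiac troponin T, at most 0.33. Actc1, the cardiac actin that skeletal muscle also makes, stood at 8.44, 42.0 and 40.8 in nonresponders 1, 3 and 4 and at most 3.21 in the other mice. Ryr2, a calcium release channel of the heart that neurons make too, had 3.70 to 6.30 FPKM in responders and 2.67 to 6.92 in nonresponders (log2 fold change 0.23, r = -0.82 with the members). Nppb, a natriuretic peptide that sensory neurons make too, had 2.04 to 5.74 and 1.48 to 3.54 (log2 fold change 0.35, r = -0.40), while Pln reached 2.32 and Tnni3 1.23. All 6 tested of 8 smooth muscle genes had lower fitted values in responders (median -0.56, 0 called), and Acta2, smooth muscle actin, had 8.37 to 19.7 and 7.35 to 33.9 FPKM, highest in nonresponders 3 and 4.

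Markers of other tissues moved with the muscle genes in part, and their part in the results on muscle was not tested. The summed level of 6 adipocyte genes was 0.75 to 6.25 FPKM in responders and 3.55 to 54.0 in nonresponders, and all 3 tested had lower fitted values in responders (median -1.36, 0 called). Fat and muscle did not mark the same mice throughout: nonresponder 2 had Fabp4, a fatty acid carrier of fat cells, at 26.5 FPKM, while its summed muscle level was 37.7. The summed level of 8 bone and cartilage genes was 6.70 to 64.3 in responders and 13.5 to 213 in nonresponders (5 of 5 tested lower, median -0.95, 0 called). Nonresponder 5 had Bglap, osteocalcin, at 74.7 FPKM, close to the 71.7 of nonresponder 3, with a summed muscle level of 27.7.

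The 7 neutrophil genes summed to 9.41 to 610 FPKM in responders and 7.95 to 4112 in nonresponders (7 of 7 lower, median -1.72, 0 called), with 4112 in nonresponder 4 but 241 in nonresponder 3, although these mice had like amounts of muscle RNA. Of 7 fibroblast genes 6 were lower and 1 higher (median -0.96, 0 called), with sums of 126 to 213 and 134 to 618. The 7 Schwann cell genes were all lower (median -0.54, 0 called), with sums of 2546 to 4770 and 4631 to 6668, and of 5 tested central nervous system glia genes among 6, 4 were lower and 1 higher (median -0.72, 0 called), with sums of 62.4 to 225 and 106 to 423. Pituitary hormone genes were the reverse, with 7 of 7 higher in responders (median 2.94, 0 called). Of 10 sensory neuron genes, 2 were lower and 8 higher (median 0.06, 0 called), and their sums were lowest in responder 1 (1348) and nonresponder 4 (1537).

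No list gene passed the adjusted threshold, and the lists differed in how many genes had an unadjusted p under 0.05 by limma, a mark that 7.4% of all genes tested passed and 4.17% passed with lower values in responders. Such genes made 6 of 7 tested Schwann cell genes, 5 of 7 fibroblast genes, 3 of 3 adipocyte genes and 3 of 5 bone and cartilage genes, all lower in responders, and 6 of 7 pituitary hormone genes, all higher. They made 2 of 6 slow fibre genes, 2 of 13 energy metabolism genes, 2 of 6 smooth muscle genes, 1 of 4 specialised myosin genes, 1 of 18 sarcomere genes, 1 of 6 myogenic genes and 1 of 5 central nervous system glia genes, all lower. There was 1 of 10 among the sensory neuron genes, higher in responders. The count was 0 of 9 for other fast fibre genes, 0 of 12 for excitation-contraction coupling, 0 of 5 for the neuromuscular junction, 0 of 1 for atrophy, 0 of 5 for cardiac and 0 of 7 for neutrophil genes.

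**Figure D5:**
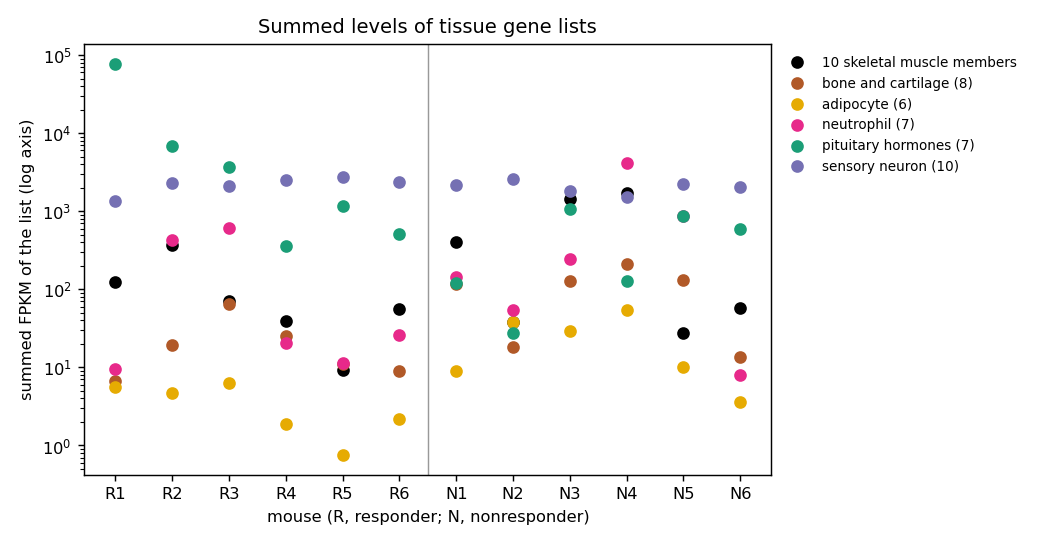
Summed FPKM of the 10 skeletal muscle genes and of 5 tissue lists in each mouse, on a log axis, with responders to the left and nonresponders to the right of the grey line. The muscle sum spans 9.28 to 1696 while the sensory neuron sum stays between 1348 and 2728, and the neutrophil sum of nonresponder 4 (4112) stands far above that of nonresponder 3 (241).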

How the data were processed

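Poly A RNA of trigeminal ganglia from 12 CD1 mice was sequenced as paired-end reads, per the labels' protocols and the series' design text. The authors deposited 1 table of FPKM per Ensembl gene and mouse; the header names no unit, and FPKM was inferred from the values. STAR 2.6.0a, StringTie 1.3.5, GRCm38 and mm10 are named in the submitters' processing notes, while the annotation release, settings and strand use remain not given in the sources used here. An exact 0 was read as a listing. GENCODE M21 (GRCm38) held 51024 of the 51341 identifiers, and 317 were not matched. The table held 0 columns of other samples and 0 pairs of identical columns.

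The 14203 genes that reached 1 FPKM in 3 or more mice were tested with limma 3.58.1 in R 4.3.3 on log2(FPKM + 1), which understates changes of low genes, with a term for sex (residual degrees of freedom, 9) and Benjamini-Hochberg adjustment over all genes at 0.05. Within-sex differences and the interaction came from the 4 means of sex and response group. Shares were compared by exact permutation (scipy 1.17.1). Each library was taken as 1 mouse, as the design text counts them. The fit was also run on simulated data with independent normal values for each gene. The members here rise and fall together, so that run does not bear on them, and no result rests on it. Promoter windows came from RefSeq (GRCm38.p6), and similar transcripts (at least 90% identity over 200 bases) from blastn 2.17.0. No read counts were used, so no counting intervals are given. The members, the 19 other gene lists and the tests were chosen with earlier results of these data known. Named genes were the 10 members, the most abundant genes of each list (up to 4 by mean FPKM) and the 15 genes most like the members; other genes named from the lists were chosen after their values were seen. Alternatives covered the pseudocount, filters, scaling, weights, covariates, a replicate block, averaging by description number and leaving out mice.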

Additional observations from a re-analysis of the deposited data

Results flagged for a closer look

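The gap of a value to the nearest mouse of its group was divided by the range of the group, both in FPKM. A value was singled out above 0.625, Dixon's 95% critical value for 6 samples, and 19 groups were checked. Only for normally distributed values does chance alone single out about 1 in 20. FPKM of these genes had long upper tails, so the chance rate here is not known and may be higher. Responder 2 was far above the other responders in Mb (70.13 FPKM, gap ratio 0.843), Acta1 (146 FPKM, 0.83) and Tnnc2 (3.11 FPKM, 0.714). Nonresponder 4 stood apart in Myh2 (20.1 FPKM, gap ratio 0.64). It was also singled out in Atp2a1 (1.44 FPKM, 1.0), which was listed at 0 in the other mice. With all others at 0, any single value above 0 has a ratio of 1.0, so this flag says nothing about its size. Since the members rise and fall together, these are not 5 separate events.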

How the results depend on the processing

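Over 205 refits of single members, 198 kept the direction, 7 reversed and 0 passed the threshold, with adjusted p from 0.503 to 0.999 by limma. Without nonresponders 3 and 4, a choice made after seeing the data, Myh4 was at 0.15, Ckm at 0.08 and Mylpf at 0.34 (log2), 5 of 8 tested members were below 0, the share difference of Myh4 was 11.2 percentage points, and 5 genes passed the interaction test. Mylpf was also at 0.00 with array weights, and leaving out each mouse in turn moved it from -0.27 to 0.14, above 0 without responder 5 (0.06), nonresponder 3 (0.14) and nonresponder 4 (0.04). The median log2 fold change of the members lay between -2.24 and -0.05 over all alternatives. The share difference of Myh1 lay between -12.5 and 1.24 with 1 mouse left out, above 0 only without nonresponder 5. Of all genes, 3 passed the response test, and 1 did when mice were averaged by description number; with 1 mouse left out, 2 to 6 did, with 5 without responder 2 and 6 without responder 5 or responder 6. The interaction test called 0 genes, 0 to 3 with 1 mouse left out, and 508 with array weights, whose estimation stopped short of its tolerance; the cause was not tested. The sex test called 8, and 6 to 9 over its alternatives. The replicate numbers did not pair the mice (correlations of same-numbered mice from -0.273 to 0.133), and with them as a replicate block 1 gene passed the response test, Myh1 kept -1.41 (adjusted p = 0.67 by limma) and no member passed. No depth in reads was known for single genes, so low members such as Tnnc2 and Atp2a1 are the least certain.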
